A study of Mus musculus with 6 samples.

Results

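The 8 genes of the intermediate filament family described here were followed in cultured mouse astrocytes after an inflammatory stimulus. They were chosen by name as the filament genes of astrocytes and the genes of the nuclear lamina: Gfap, Vim, Nes, Synm and Des, whose proteins build cytoplasmic filaments, and Lmna, Lmnb1 and Lmnb2, which encode the lamins. All 8 were measured, each by 1 probe set, among 19926 genes tested. Primary astrocytes from C57BL/6J mice were exposed for 24 h to 50 ng/mL of tumour necrosis factor (TNF), a cytokine of inflammation (3 samples), beside control cultures of the same strain labelled with the same time (3 samples). Each sample's RNA was read on 1 whole-transcript array, the Affymetrix Mouse Gene 1.0 ST. The labels give no sex, age or passage, and do not say whether samples were separate cultures or animals or what the controls received, so the p-values reflect the spread among these 6 samples and possibly technical spread alone. The series title names NF-kB, the transcription factor family activated by TNF, and speaks of inflammation turning astrocytes into neural progenitors, the question that the comparison of TNF with control addresses.

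Intermediate filaments are rope-like polymers that give cells mechanical strength. In astrocytes GFAP and vimentin polymerise together, and nestin and synemin, which do not form filaments on their own there, join them. Nestin is typical of neural progenitors and returns in reactive astrocytes, the activated state seen after injury, in which Gfap, Vim, Nes and Synm are known to increase. Lamins line the inner nuclear membrane: Lmna gives the A-type lamins A and C, while Lmnb1 and Lmnb2 give the B-type lamins B1 and B2.

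The values are log2 signals, so a difference of 1 is a 2-fold difference in signal, and differences are TNF minus control. The arrays were of like brightness, with medians over the genes tested from 7.59 to 7.65, and the median difference over all genes was -0.0033. The 2 arrays of replicate 3 had the highest lower quartiles (6.33 with TNF and 6.27 in control) and the lowest upper quartiles (9.16 with TNF and 9.17 in control); the other arrays had 6.01 to 6.09 and 9.29 to 9.33. Samples with the same replicate number deviated together. A fit with the number as a block is given where it changes the call of a gene whose adjusted p is printed. Of 12 astrocyte markers, 10 lay above the median gene signal. Aldh1l1, a folate enzyme used as a pan-astrocyte marker, averaged 11.06 ± 0.30 with TNF and 11.13 ± 0.32 in control (SD, n = 3 each). S100b and Gjb6 lay below the median gene signal, at the 29.4th and 11.4th percentile.

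Among the 8 genes 1 passed, Nes, which was lower in TNF samples, and none was higher (limma without a block, adjusted p under 0.05). Of all genes 3.33% were lower and 3.87% higher, 7.2% in all. With the replicate number as a block 3 were lower, Nes, Gfap and Synm, and none higher, where 11.8% of all genes were lower and 9.73% higher (21.5% in all). In 5 of the 8 (Gfap, Vim, Nes, Synm and Lmnb1) the TNF sample lay below its control in all 3 pairs, which was true of 26.9% of all genes, and none lay above in all 3, which was true of 25.7%. The groups did not overlap in 3 of the 8 (Vim, Nes and Synm, all with TNF below), against 11.7% of all genes with TNF below, 12.3% with TNF above and 24.0% in all. The median difference over the 8 was -0.24, and without control 2 it was -0.14.

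**Figure D1:**
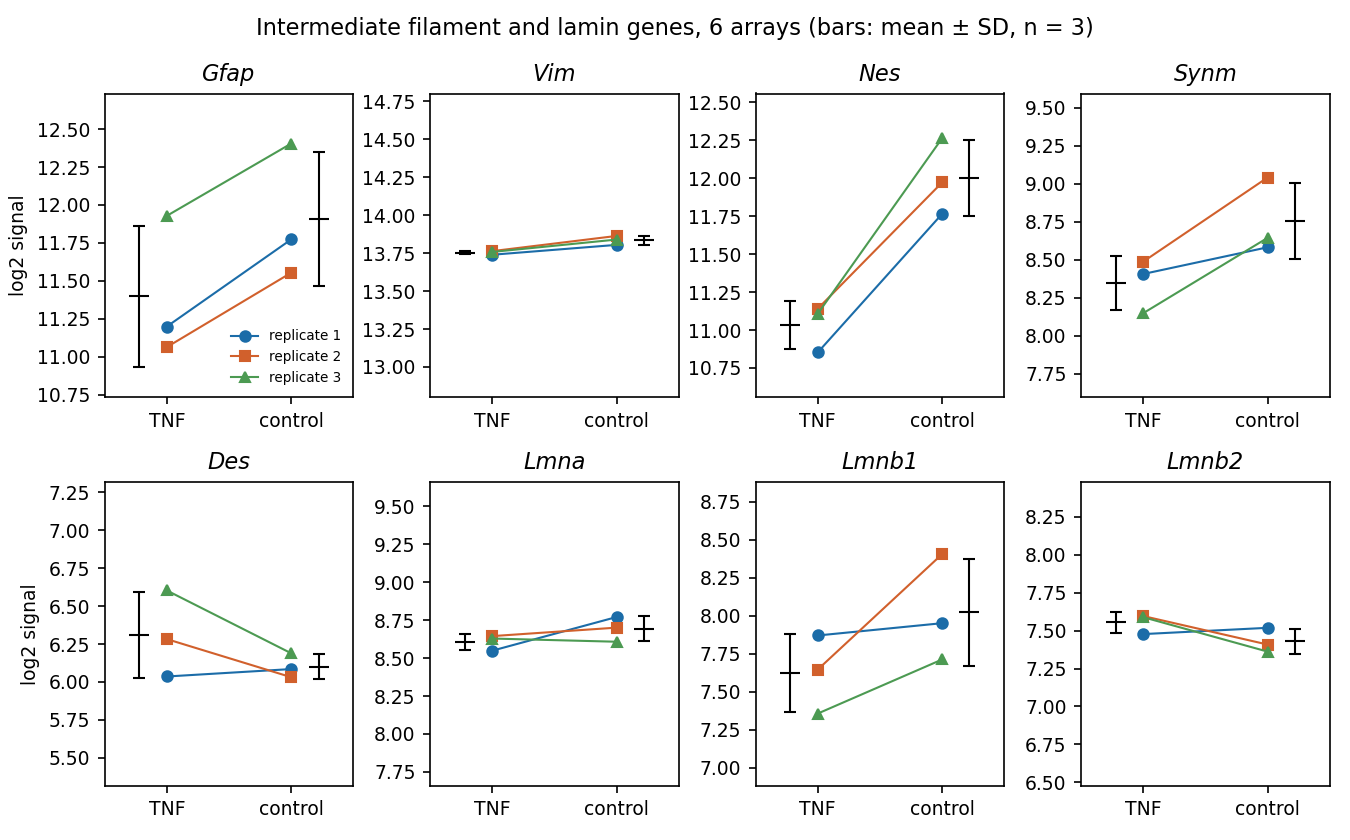
Log2 signal of each of the 8 genes on the 6 arrays, TNF at the left and control at the right of each panel; lines join samples of the same replicate number, bars give mean ± SD (n = 3), and every panel spans 2 log2 units. The 3 lines of Nes have the steepest slopes, those of Gfap run parallel at different heights, and those of Vim lie almost on each other.

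The 4 cytoplasmic filament genes of reactive astrocytes are shown first with the DNA just before their annotated starts, because their proteins share a polymer and their differences ran from -0.97 (Nes) to -0.08 (Vim). The windows come from RefSeq (GRCm38.p6), 5′ to 3′ on the gene's strand: Gfap chr11:102897194-102897450 (minus strand), Vim chr2:13574061-13574310 (plus), Nes chr3:87970843-87971092 (plus) and Synm chr7:67759743-67759992 (minus). Each ends at the base before the start, except that of Gfap, which runs 7 bases past it to complete a match. Capitals mark matches to motifs of factors that act downstream of cytokines.
Gfap: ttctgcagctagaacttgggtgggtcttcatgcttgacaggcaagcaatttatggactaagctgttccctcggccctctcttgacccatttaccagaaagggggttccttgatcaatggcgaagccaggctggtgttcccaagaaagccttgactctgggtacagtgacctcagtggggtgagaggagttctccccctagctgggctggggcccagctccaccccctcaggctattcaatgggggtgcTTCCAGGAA
Nes: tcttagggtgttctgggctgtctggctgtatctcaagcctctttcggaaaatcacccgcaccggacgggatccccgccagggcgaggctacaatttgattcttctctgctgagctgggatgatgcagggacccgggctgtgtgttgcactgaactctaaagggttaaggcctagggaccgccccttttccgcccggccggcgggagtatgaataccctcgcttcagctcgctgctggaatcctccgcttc
Synm: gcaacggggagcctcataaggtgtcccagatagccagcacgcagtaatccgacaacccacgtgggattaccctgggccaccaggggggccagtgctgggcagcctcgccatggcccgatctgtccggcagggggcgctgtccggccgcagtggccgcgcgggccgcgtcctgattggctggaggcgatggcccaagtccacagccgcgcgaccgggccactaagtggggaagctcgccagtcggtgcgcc
Vim: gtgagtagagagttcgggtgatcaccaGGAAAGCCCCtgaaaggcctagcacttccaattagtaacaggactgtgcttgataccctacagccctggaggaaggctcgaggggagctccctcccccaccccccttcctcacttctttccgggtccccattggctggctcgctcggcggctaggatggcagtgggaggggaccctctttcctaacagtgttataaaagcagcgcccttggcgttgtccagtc
The motifs searched, on both strands and over 250 bases before to 50 after the start, were GGG followed after 2 free bases by TTTCC or by TTCCC for NF-kB, TTCNNNGAA for STAT factors and TGANTCA for AP-1; no matches overlapped in these windows. The Gfap window held 1 STAT match, TTCCAGGAA, at positions -2 to 7 (the first transcribed base is 1, with no 0), and 8.3% of all 32851 promoter windows of that length held at least 1. The Vim window held 1 NF-kB match of the first form, on the opposite strand at positions -223 to -214; 1.63% of all windows held that form. Those of Nes and Synm held none of the 4, which says only that these letters are not in this window. Among the other members searched, Des and Lmnb2 held none either, and Lmna had 2 windows with a match. Both windows of Lmna (chr3:88503353-88503602 and chr3:88493313-88493562, minus strand) lie inside the annotated gene (chr3:88481148-88509932). The outermost start of Lmna was thus not searched. Its window 1 held an AP-1 match at positions 40 to 46, and 7.81% of all windows held that motif. Its window 2 held an NF-kB match of the first form at positions 4 to 13.

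Nes encodes nestin, the large filament protein of neural progenitors. Its signal was 10.85, 11.14 and 11.11 in TNF samples 1, 2 and 3, against 11.77, 11.97 and 12.26 in control samples 1, 2 and 3. Every TNF sample was below every control, with a gap between the groups wider than the spread within either. Nes fell by 0.97 on the log2 scale (SE 0.16, 95% confidence interval -1.33 to -0.60, limma adjusted p = 0.0102), which is 48.8% less signal. The fall was largest in replicate 3 (-1.16) and smaller in replicates 1 (-0.91) and 2 (-0.83). The call held in all 6 fits without 1 array (adjusted p 0.0188 to 0.0366) and was lost in the 3 fits of 2 against 2 samples without 1 replicate number (0.067 without 1, 0.0964 without 2 and 0.0548 without 3); with the block it held in all 3 of those (1.86e-04 to 0.00329). In bulk RNA, fewer cells of a type and less RNA per cell cannot be told apart, here and in what follows.

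Gfap encodes the glial fibrillary acidic protein, the defining filament of astrocytes. Its signal was 11.20, 11.06 and 11.93 in TNF samples 1, 2 and 3, against 11.77, 11.55 and 12.40 in control samples 1, 2 and 3. Both samples of replicate 3 were high, and the groups overlapped: TNF 3 exceeded controls 1 and 2. Within replicate numbers the TNF sample was lower each time, by nearly the same amount: -0.57, -0.49 and -0.48. The mean difference was -0.51 (29.9% less signal), with an SE of 0.28 and an adjusted p of 0.42 without the block, and an SE of 0.08 and an adjusted p of 0.00356 with it. The spread of Gfap within groups (SD 0.45) was at the 96.9th percentile of all genes, while its 3 pair differences had an SD of only 0.053, against a median of 0.14 over all genes. The blocked call held without each replicate number in turn (adjusted p 0.00884 to 0.0185). Without the block the difference moved between -0.27 without control 3 and -0.78 without TNF 3, not called in either.

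Vim encodes vimentin, the partner of GFAP in astrocyte filaments. Its signal was 13.74, 13.76 and 13.76 in TNF samples 1, 2 and 3, against 13.80, 13.86 and 13.84 in control samples 1, 2 and 3. All TNF samples were below all controls, but by little: the difference was -0.08 (95% confidence interval -0.31 to 0.14, adjusted p = 0.815; 0.527 with the block). Vim was at the 99.97th percentile of gene signals, near the top of the scale (the highest value in the table was 14.37), and its spread within groups (SD 0.023) was at the 0.196th percentile. Differences at the bright end of an array can be compressed, and its part in the small difference was not tested. Under quantile normalization of the genes tested, the difference of Vim was nearly 0 (-2.34e-04).

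Synm encodes synemin, which links filaments to their anchoring sites. Its signal was 8.41, 8.49 and 8.15 in TNF samples 1, 2 and 3, against 8.58, 9.04 and 8.64 in control samples 1, 2 and 3. The groups did not overlap, though TNF 2 and control 1 were only about as far apart as the closest arrays within a group. The difference was -0.41 (95% confidence interval -0.78 to -0.04, adjusted p = 0.213), and with the block Synm was called lower (adjusted p = 0.024). Replicate 1 showed a smaller difference (-0.18) than replicates 2 (-0.55) and 3 (-0.50). The blocked call was lost without replicate 2 (adjusted p = 0.121) and without replicate 3 (0.112).

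Des encodes desmin, the filament of muscle and of mural cells around vessels. It was the dimmest of the 8, at the 25.8th percentile of gene signals, so its values may lie near background. Its signal was 6.04, 6.28 and 6.60 in TNF samples 1, 2 and 3, against 6.09, 6.03 and 6.19 in control samples 1, 2 and 3. The TNF sample was lower in replicate 1 and higher in replicates 2 and 3, and the groups overlapped (difference 0.21, SE 0.16, adjusted p = 0.618).

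**Figure D2:**
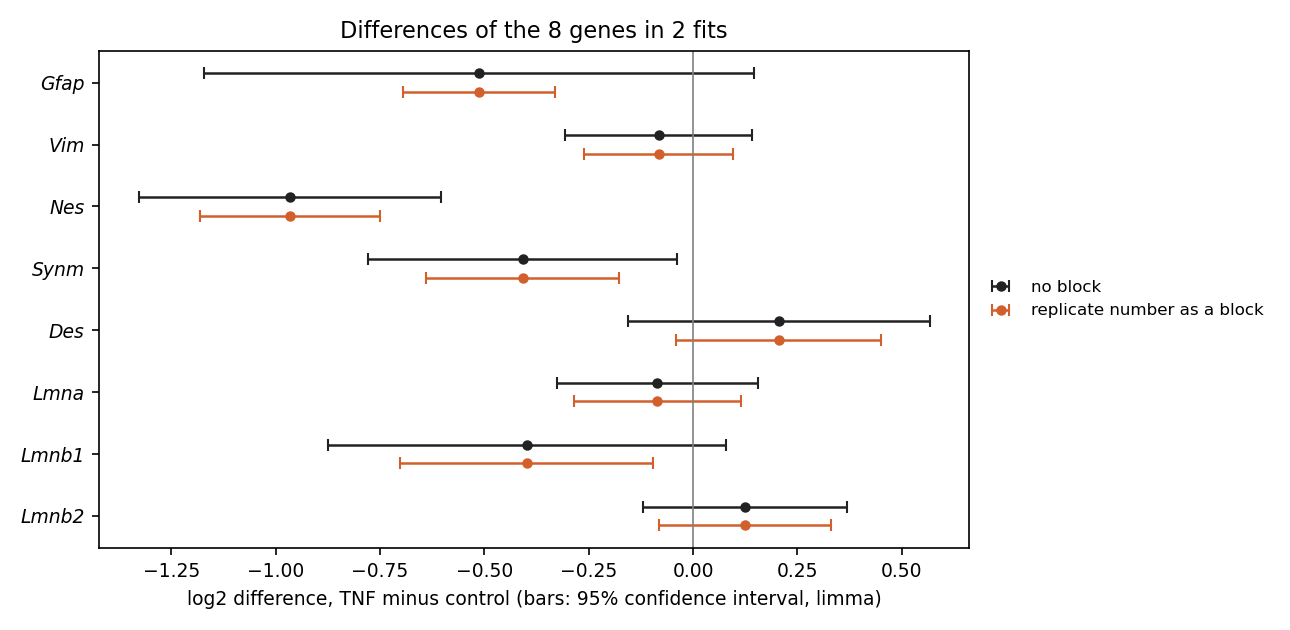
Log2 difference (TNF minus control) of each gene with its 95% confidence interval, from limma without a block (black) and with the replicate number as a block (orange). The interval of Gfap runs from -1.17 to 0.15 without the block and from -0.70 to -0.33 with it, while that of Vim includes 0 in both.

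Of the lamin genes none was called in either fit on all 6 arrays. Lmnb1, lamin B1, had a signal of 7.87, 7.65 and 7.36 in TNF samples 1, 2 and 3, against 7.95, 8.41 and 7.71 in control samples 1, 2 and 3. Each TNF sample was below its own control, but the groups overlapped and the size varied from -0.08 in replicate 1 to -0.76 in replicate 2. The mean difference was -0.40 (95% confidence interval -0.88 to 0.08, adjusted p = 0.376; 0.0685 with the block). With the block and without replicate 1 it was called lower (-0.56, adjusted p = 0.00916).

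Lmna, which encodes the A-type lamins, had a signal of 8.55, 8.64 and 8.63 in TNF samples 1, 2 and 3, against 8.77, 8.70 and 8.61 in control samples 1, 2 and 3. Its single probe set cannot separate the lamin A and lamin C transcripts. The groups overlapped through control 3, and the difference was -0.09 (95% confidence interval -0.33 to 0.16, adjusted p = 0.827). Lmnb2, lamin B2, had a signal of 7.477, 7.595 and 7.588 in TNF samples 1, 2 and 3, against 7.518, 7.408 and 7.361 in control samples 1, 2 and 3. It was lower with TNF in replicate 1 and higher in replicates 2 and 3 (difference 0.12, 95% confidence interval -0.12 to 0.37, adjusted p = 0.674). Both varied little within groups, with SDs at the 6.72nd (Lmna) and 8.28th (Lmnb2) percentile of all genes.

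Lmnb1 was set beside the cell cycle genes, with which it shared some features over these arrays and not others. The 22 measured cell cycle genes had mean log2 signals of 8.10, 8.49 and 7.79 in TNF samples 1, 2 and 3, against 8.39, 9.30 and 8.39 in control samples 1, 2 and 3. Control 2 was the highest array for both Lmnb1 and the list, and TNF 3 the lowest for both. The list was lower with TNF in each replicate number, as was Lmnb1, and replicate 2 had the largest difference in both. The order of the arrays differed, however. TNF 2 was above controls 1 and 3 for the list (8.49 against 8.39 and 8.39) but below them for Lmnb1 (7.65 against 7.95 and 7.71). None of the 22 was called without the block. At an unadjusted p under 0.05, 7 were lower and 0 higher, where 9.73% of all genes were lower and 9.15% higher. With the block 14 were lower and 0 higher, where 11.8% of all genes were lower and 9.73% higher. The list median was -0.55, beside -0.0033 over all genes. Ccna2, the S and G2 phase cyclin, was 7.91 ± 0.61 with TNF and 9.19 ± 0.76 in control (limma adjusted p = 0.13, and 0.00463 with the block). Pcna, the sliding clamp of DNA replication, differed by -0.53 (adjusted p = 0.15, and 0.0195 with the block). Rrm2, a subunit of ribonucleotide reductase, differed by -1.13 (adjusted p = 0.166, and 0.002 with the block). The part of cell cycle signal in the values of Lmnb1 was not tested.

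**Figure D3:**
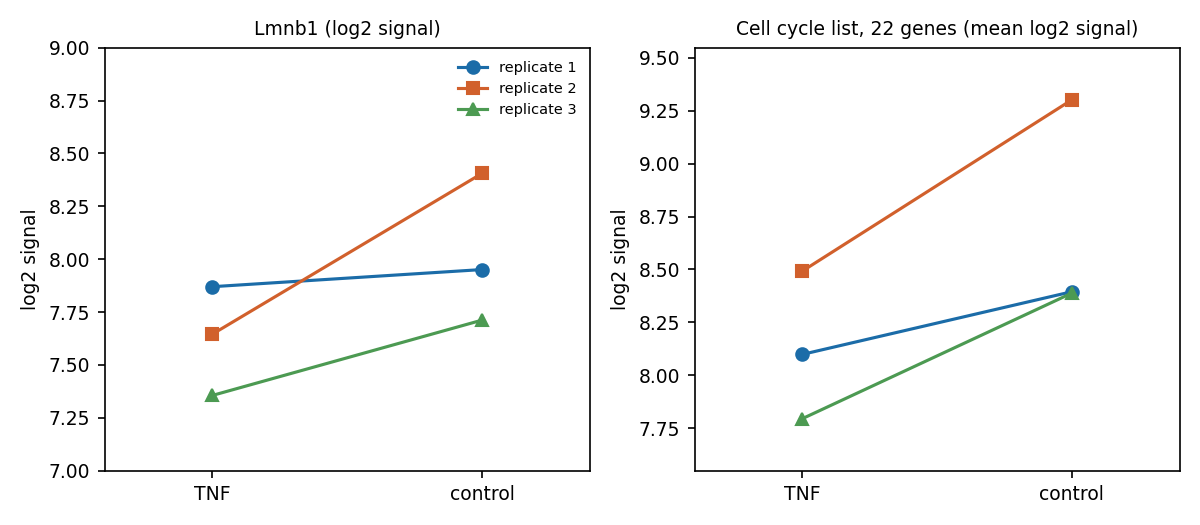
Log2 signal of Lmnb1 (left) and mean log2 signal of the 22 measured cell cycle genes (right) on the 6 arrays, TNF left of control, with lines joining samples of the same replicate number. All 6 lines are lower at TNF, replicate 2 has the steepest line in both panels, and Lmnb1 in replicate 1 is nearly flat (-0.08).

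Whether the genes changed unequally was asked with the ratio of their signals within each array, for 6 relations fixed by name. An exact two-sided permutation test over the 20 assignments of 3 and 3 arrays cannot go below p = 0.1, and one that exchanges the groups only within replicate numbers (8 exchanges, added after seeing the data) cannot go below p = 0.25, so none could pass by these tests. A model-based fit of the ratios was not made. Within replicate numbers the exact permutation p was 0.25 (adjusted p = 0.3) for every relation except that of Lmnb1 to Lmna (exact permutation p = 0.5, adjusted p = 0.5). Relative to Vim, Nes changed by -0.88, with every TNF sample below every control (exact p = 0.1, adjusted p = 0.2). Gfap changed by -0.43 relative to Vim, with overlapping groups (exact p = 0.3, adjusted p = 0.36) but nearly equal values in the 3 replicate numbers: -0.51, -0.39 and -0.39. Synm changed by -0.33 relative to Vim (exact p = 0.1, adjusted p = 0.2).

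Of the lamins, the ratio of Lmnb2 to Lmna was higher in every TNF sample than in every control, by 0.18, 0.24 and 0.21 within replicates 1, 2 and 3, a mean of 0.21 (exact p = 0.1, adjusted p = 0.2). The relation of Lmnb1 to Lmna changed by 0.14 in replicate 1 and by -0.70 and -0.38 in replicates 2 and 3 (mean -0.31, exact p = 0.4, adjusted p = 0.4). Lmnb1 relative to Lmnb2 changed by -0.04, -0.95 and -0.58 (mean -0.52, exact p = 0.2, adjusted p = 0.3). The 2 relations of Lmnb1 thus differed more between replicates than that of Lmnb2 to Lmna.

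**Figure D4:**
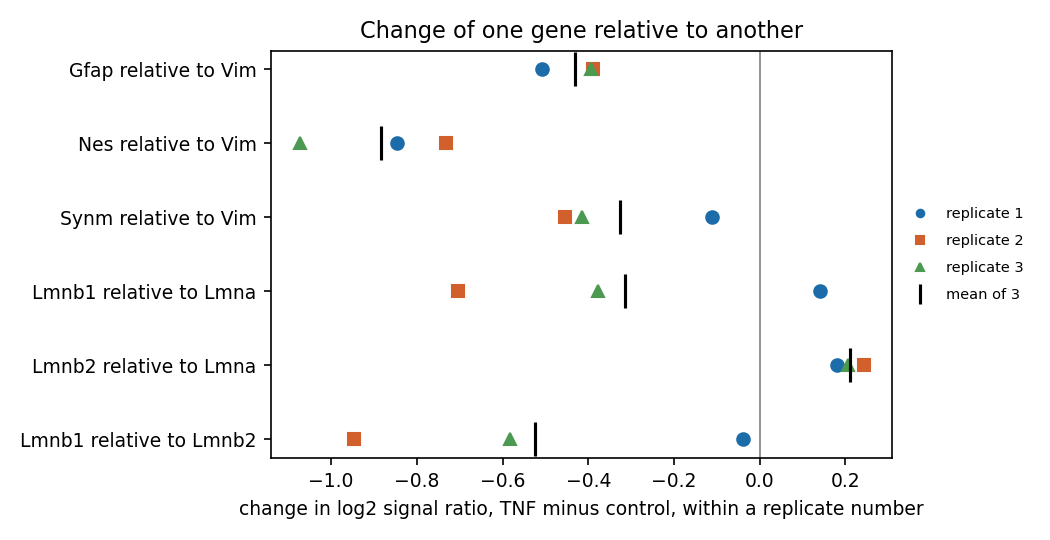
Change (TNF minus control) in the log2 signal ratio of one gene to another within each replicate number; points are the 3 replicate numbers and the vertical mark is their mean. The points of Gfap relative to Vim and of Lmnb2 relative to Lmna lie close together, and those of Lmnb1 are spread from 0.14 to -0.70 relative to Lmna.

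Genes that act on or with these filaments, and genes of actin, microtubules and the cell cycle, were counted in 7 lists of 124 measured genes in all. Of these 6 were higher (4.84%) and 12 lower (9.68%) without the block, against 3.87% and 3.33% of all genes. With the block 14 were higher (11.3%) and 42 lower (33.9%), against 9.73% and 11.8% of all genes. Of these 42 lower genes, 14 came from the list of 22 cell cycle genes. The median difference was -0.08. Leaving out 1 array gave 2 to 7 higher and 3 to 7 lower. The lowest counts of higher genes came without TNF 2 or control 1 (2 each), and of lower genes without control 1. Of the 18 called, 5 kept the call in all 6 such fits: Pkp4, Cntfr, Osmr, Map2 and Stmn1.

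Among 21 other intermediate filament genes, such as keratins and neurofilaments, 1 was higher and none lower, with a median of 0.03, and 17 of the 21 lay below the median gene signal. With the block 2 were higher and none lower. Iffo2, a little-studied member of the family, had a signal of 8.30, 8.52 and 8.58 in TNF samples 1, 2 and 3, against 7.65, 7.78 and 7.87 in control samples 1, 2 and 3. It was above all controls in every TNF sample and rose 1.62-fold (adjusted p = 0.0139; 0.0655 without control 1 and lost also without TNF 2). Sync, syncoilin, differed by -0.25 (adjusted p = 0.252), and the keratin Krt222 by 0.34 (0.325, and 0.0329 with the block).

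Of 13 filament linkers and chaperones 3 were lower and none higher, with a median of -0.34; with the block 7 were lower and 1 higher. Pkp4, plakophilin 4, an armadillo protein of cell junctions, averaged 9.92 ± 0.07 with TNF and 10.68 ± 0.09 in control (SD, n = 3 each, 1.70-fold lower, adjusted p = 0.00518). Jup, the junction protein plakoglobin, fell by 0.61, and Dtna, alpha-dystrobrevin, fell by 0.51. The call of Jup was lost in 5 of the 6 fits that leave out an array (up to 0.0956, without control 1) and that of Dtna in all 6 (up to 0.108, without control 3). Another 2 members are given after their values were seen: Plec, the plectin that crosslinks vimentin filaments, differed by 0.40 and was called higher only with the block (adjusted p = 0.103 without, 0.014 with), and Cryab, a small heat shock protein that binds GFAP, differed by -0.35 (0.159 without, 0.027 with).

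Of 25 lamina partners and lamin processing genes 2 were higher and 2 lower, with a median of -0.0072. With the block 4 were higher and 6 lower. Tor1aip2 and Tor1aip1, which encode the torsin activators LULL1 and LAP1, the second of which binds lamins, rose by 0.76 (adjusted p = 0.0159) and 0.56 (adjusted p = 0.0442). Nrm, nurim of the inner nuclear membrane, fell by 0.82 (adjusted p = 0.0175), and Cbx5, the heterochromatin protein HP1 alpha, fell by 0.55 (adjusted p = 0.041). These calls were lost in 3 (Tor1aip2, highest adjusted p = 0.0729 without control 1), 5 (Tor1aip1, 0.136 without TNF 2), 2 (Nrm, 0.0548 without TNF 2) and 5 (Cbx5, 0.153 without control 1) of the 6 fits without 1 array.

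Of 12 measured filament kinases and proteases 1 was lower: Capn2, the calcium-dependent protease calpain 2, fell by 0.52 (adjusted p = 0.0334), a call lost in all 6 fits without 1 array (highest 0.117, without control 2). Casp8, the initiator caspase of death receptors, differed by 0.79 (adjusted p = 0.054; 0.00156 with the block). Cdk1, the mitotic kinase that phosphorylates vimentin, nestin and lamins, differed by -0.67 (0.202; 0.00459 with the block). With the block 4 of the 12 were lower and 1 higher.

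Regulators of Gfap and nestin moved both ways: 3 of 20 were higher and 3 lower, with a median of -0.10. With the block 5 were higher and 7 lower. Cntfr and Osmr, receptor subunits for ciliary neurotrophic factor and oncostatin M, cytokines that act through STAT3, rose 1.86-fold (adjusted p = 0.00538) and 1.90-fold (adjusted p = 0.00564). Stat3, a transcription factor that activates Gfap, averaged 12.11 ± 0.06 with TNF and 11.53 ± 0.04 in control (a rise of 0.58, adjusted p = 0.0133; lost in 4 of 6 fits without 1 array, highest 0.0604 without TNF 2). In the same samples Gfap lay below its control in all 3 pairs.

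Notch1, a receptor that maintains neural progenitors, fell by 0.54 (adjusted p = 0.018), its target Hes1 fell by 0.83 (adjusted p = 0.0242) and Fos, an AP-1 subunit, fell by 1.15 (adjusted p = 0.0296). Without 1 array these calls were lost in 5 (Notch1, highest 0.0853 without TNF 2), 4 (Hes1, 0.09 without control 1) and 5 (Fos, 0.11 without control 1) of 6 fits. Sox2, Pou3f2 and Pax6 are given after their values were seen. Sox2, a progenitor factor that is known to act on the Nes enhancer, differed by -0.04 (adjusted p = 0.967). Pou3f2 differed by -0.33 (limma adjusted p = 0.327, and 0.0344 with the block), and Pax6 by -0.26 (0.266, and 0.105 with the block). Over the 20 regulators, 11 were lower and 6 higher with TNF in all 3 pairs, where 26.9% and 25.7% of all genes were. Sox9, a glial factor given after its values were seen, differed by -0.76 (0.0587; 0.00117 with the block). Lifr and Socs3 of the same list, also given after their values were seen, went the other way. Lifr differed by 0.48 (limma adjusted p = 0.163, and 0.00998 with the block) and Socs3 by 0.35 (0.266, and 0.0259 with the block).

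Among 11 measured genes of actin, tubulins and proteins that act on microtubules 3 were lower and none higher, with a median of -0.17. None of the 3 was an actin or tubulin gene. With the block 4 were lower and 1 higher. The tubulins Tubb2a and Tubb6 are given after their values were seen. Tubb2a differed by 0.41 (limma adjusted p = 0.0772, and 0.0121 with the block) and Tubb6 by -0.30 (0.607, and 0.0436 with the block). Stmn1, stathmin, which destabilises microtubules, fell by 1.44 (2.71-fold lower, adjusted p = 0.00575). Map2 and Mapt, microtubule-associated proteins best known from neurons, fell by 1.22 (adjusted p = 0.00349) and 0.64 (adjusted p = 0.0159); the call of Mapt was lost in 3 of 6 fits without 1 array (highest 0.0738, without control 1).

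**Figure D5:**
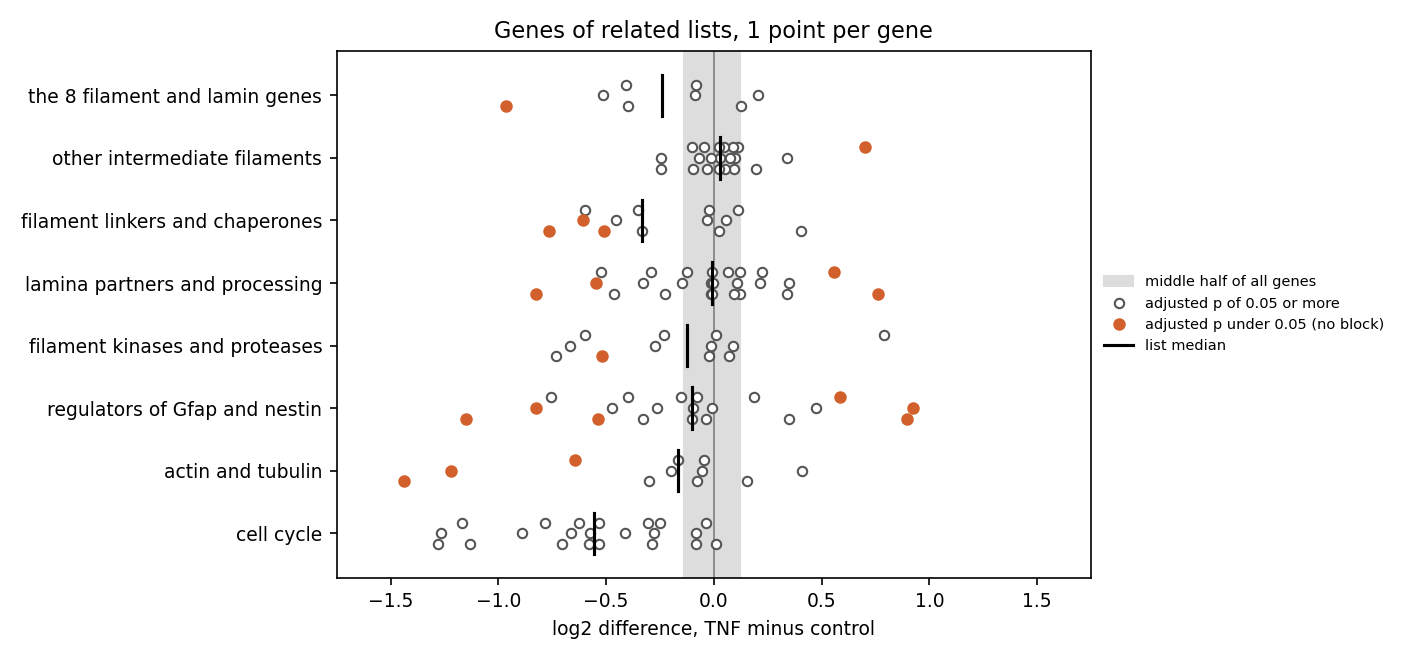
Log2 difference (TNF minus control), 1 point per gene, for the 8 filament and lamin genes and the 7 related lists; filled orange points passed an adjusted p under 0.05 without the block, black bars are list medians and the grey band is the interquartile range of all genes (-0.14 to 0.12). Cell cycle genes lie almost all to the left with no filled point, and the regulators of Gfap and nestin have filled points on both sides.

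Single markers of several cell types differed beside Nes and Gfap, and their part in these results was not tested. In the sums given here the brightest genes of a list weigh most, and the markers named were chosen after their values were seen. The counts of markers called stand beside 3.33% of all genes lower and 3.87% higher without the block. With the block these shares were 11.8% and 9.73%. The log2 of the summed signal of 12 astrocyte markers ran from 14.56 to 14.84 with TNF and from 15.01 to 15.30 in control, with a median difference of -0.50 over the list. Of the 12, 4 were lower (Aldoc, Glul, Fgfr3 and Gja1) and none higher; with the block 7 were lower and 2 higher. These 2 were the glutamate transporter Slc1a2 (a difference of 0.60, adjusted p = 0.0617 without the block and 0.0123 with it) and the water channel Aqp4 (0.60, adjusted p = 0.0718 without and 0.0069 with), and in both every TNF sample was above every control.

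In 3 other lists the sums were lower in every TNF sample than in every control while the list medians were near 0. For 9 oligodendrocyte lineage markers the sum was 11.76 to 11.93 with TNF and 12.36 to 12.44 in control; 1 was lower, the lineage factor Olig1 (-1.21, adjusted p = 0.00786), and the list median was -0.01. For 11 fibroblast and mural markers it ran from 12.92 to 13.62 with TNF and from 14.10 to 14.34 in control; 1 was lower, the smooth muscle actin Acta2, at 12.41 ± 0.35 with TNF and 13.37 ± 0.09 in control, and the list median was -0.04. For 10 neuron markers it was 12.21 to 12.46 with TNF and 12.56 to 13.03 in control; 1 was lower, Map2, and the list median was -0.05. With the block 3 fibroblast and mural markers were lower and none higher, and 2 neuron markers were lower and 1 higher.

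The other 3 sums overlapped between groups. That of the 12 microglia markers was higher with TNF within each replicate number, at 11.48, 10.49 and 11.86 in TNF samples 1, 2 and 3, against 10.98, 10.21 and 11.83 in control samples 1, 2 and 3; none was called without the block, and 3 were higher with it. The sum of the 8 endothelial markers was 9.293 to 9.775 with TNF and 9.503 to 9.734 in control, with 1 lower, the receptor Kdr (-0.91, adjusted p = 0.0105). The sum of the 6 ependymal markers was 11.56 to 12.03 with TNF and 10.79 to 11.67 in control, with 1 higher, the secreted protein Rarres2 (1.67, adjusted p = 0.0139), and with the block 1 higher and 2 lower. Array signals have no true 0 and no detection calls were used; 8 of 12 microglia, 8 of 8 endothelial, 7 of 10 neuron, 6 of 9 oligodendrocyte, 6 of 11 fibroblast and mural and 2 of 6 ependymal markers lay below the median gene signal.

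Among 9957 genes at or above the median signal, the likeness of a gene to Nes or Gfap was taken as the root mean square difference between their centred log2 signals over the 6 arrays, a description in which treatment and replicate number are shared by all. The nearest to Nes were Dab1, an adaptor of reelin signalling (0.055), C1ql3, a secreted C1q-like protein (0.059), Baalc (0.086), Ptprz1, a receptor tyrosine phosphatase (0.093), and Lmod1, leiomodin 1, which nucleates actin (0.11). Nes itself deviated from its mean by 0.51 on this measure. Their differences ran from -1.08 (Ptprz1) to -0.92 (Lmod1), beside -0.97 for Nes. The nearest to Gfap, which itself deviated by 0.45, were Scg3, a granin of secretory granules (0.12), Fggy, a carbohydrate kinase (0.16), Adamts17, a metalloprotease (0.19), the olfactory receptor gene Olfr1174 (0.199) and Sorbs3, the adhesion adaptor vinexin (0.2). Scg3 had the high replicate 3 of Gfap in both groups, 10.51, 10.48 and 10.99 with TNF against 11.06, 10.80 and 11.53 in control. Since these genes were chosen for their profiles over the same arrays, their differences follow from the choice.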

How the data were processed

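The titles of the samples gave group and replicate number. The deposited table holds log2 signals for 35544 probe sets on 6 arrays; per the submitters' processing notes the tools were RMA, which corrects background, normalizes between arrays and summarises probes, and limma, whose versions the sources used here do not give. The log base was read from the values (2.04 to 14.37). No value was missing, and depth has no meaning for arrays: their number limits the precision. Probe sets with exactly 1 gene symbol in the platform annotation (21777) were used, and of several for 1 gene (999 genes) the one of highest mean was kept, which left 19926 genes. Each of the 8 members has 1 probe set.

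Groups were compared with lmFit and eBayes of limma 3.58.1 (R 4.3.3), two-sided and unblocked, and p-values were adjusted over all genes by Benjamini-Hochberg (threshold 0.05); the fit had 4 residual and 3.70 prior degrees of freedom. In the labels, a TNF and a control sample of one number begin their descriptions with the same code, of unstated meaning, and the values pair the samples the same way: across genes, which are not independent, deviations from group means had correlations of 0.55 (number 1), 0.65 (2) and 0.75 (3), and the block fit had 2 residual degrees of freedom. Ratios between members were tested by exact permutation with Benjamini-Hochberg adjustment over 6 relations. Promoter sequences came from RefSeq (GRCm38.p6) by symbol for 7 of the 8 members. Lmnb1, on chromosome 18, was left out of the search by a rule set beforehand. Code was tested on simulated data. Tables and plots used pandas 2.3.3, numpy 2.4.6, matplotlib 3.10.9 and Python 3.11.15.

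The members, the lists, written from general knowledge, and the tests were chosen with earlier results of these data known. Named genes were the members, of each related list the 3 with the smallest p and all called, and the 5 nearest in profile to Gfap and to Nes; others are marked. List genes without a probe set of their own were not analysed here. Alternatives were other normalization, centring, dim-gene filters, variance models, array weights, probe set choices, thresholds, the replicate block and arrays left out.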

Additional observations from a re-analysis of the deposited data

How the results depend on the processing

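The signs of all 8 differences held under every alternative in which the gene was kept. For Vim this means little under quantile normalization of the genes tested, where its difference nearly vanished. Des and Lmnb2 were left out without genes below the median signal. With the replicate block (the pairing of the samples) Gfap (-0.51, adjusted p = 0.00356) and Synm (-0.41, adjusted p = 0.024) were also called, which made 3 members lower. Over all genes 1938 were higher (9.73%) and 2351 lower (11.8%), and of the list genes 14 were higher (11.3%) and 42 lower (33.9%). The pairs are balanced, so the block changes the errors and not the differences. Lmnb1 and the other members changed no call with the block. At an adjusted p under 0.01, or where a difference of 1 or more was also required, Nes (-0.97) was not called, which left 0 members lower; over all genes the counts were 386 higher and 195 lower at the stricter p and 365 and 200 at the size threshold, and of list genes 2 and 3, and 0 and 3. List genes called higher numbered 10 with array weights and 10 without genes below the median signal. The relations between members were not called in any setting; by exact permutation, over all arrays or within replicate numbers (the replicate block, lowest adjusted p = 0.3), none could be.

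Leaving out 1 array gave 465 to 669 genes higher and 315 to 455 lower, 1 member lower, and 2 to 7 list genes higher and 3 to 7 lower; the median over the members ran from -0.27 to -0.14 (-0.14 without control 2). Leaving out both arrays of a replicate number (chosen after seeing the data) gave 273 to 401 genes higher and 106 to 231 lower, 0 members lower, and 0 to 1 list genes higher and 0 to 5 lower; the median over the members ran from -0.29 to -0.16, with the block as without it. The same with the block gave 1250 to 1801 higher (1275 without replicate 2) and 1451 to 2258 lower (1660 without replicate 2), 2 to 4 members lower, and 9 to 13 list genes higher (10 without replicate 3) and 22 to 44 lower (29 without replicate 2). In these last fits the difference of Gfap ran from -0.53 to -0.48 (-0.52 without replicate 2), and Synm (-0.52) and Lmnb1 (-0.56) were called without replicate 1. Over all these fits the differences ran from -0.78 to -0.27 for Gfap, -1.08 to -0.83 for Nes, -0.52 to -0.27 for Synm and -0.56 to -0.21 for Lmnb1. Why calls moved was not tested beyond the smaller number of arrays and the pairing. The precision is limited by 3 arrays per group, and for Des by a signal that may lie near background.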
